A study of Mus musculus with 33 samples.

Results

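The open domains of the E11.5 mouse forebrain are the 3730 stretches that the authors listed as open on chromosomes 1 to 19, out of 8435 forebrain domains (with 2620 KODs and 2085 LADs) and 26939 domains in the 9 lists of the series. They were chosen by the measured H3K9me2 and Lamin B1 signal itself, as the authors called it, so their state for either mark is what selected them and is not a result. LAD stands for lamina-associated domain, KOD is the depositors' own label and is not spelled out in the sources used here, and "open" is also their label. The name was not checked against chromatin accessibility or RNA, neither of which was analysed here.

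The study used CUT&RUN, in which a nuclease tethered to an antibody releases the DNA under it from unfixed cells, on 33 libraries of 9 groups. Forebrain tissue was the right lobe of wild-type C57BL/6 embryos at E11.5, pooled by litter, with 3 libraries for H3K9me2, 3 for Lamin B1 and 6 for IgG. The same 3 antibodies were used on whole hearts of embryos of that stage and strain (3, 3 and 6 libraries) and on mES cells, a C57BL/6 embryonic stem cell line in LIF and inhibitor medium (3, 3 and 3 libraries). No group carried a mutation or a drug treatment beyond that culture medium. A pooled lobe mixes dividing progenitors, early neurons, vessels and other cells, so a domain is an average over them. Each list pools the replicates of its source and gives a chromosome, start and end in whole 10 kb bins with no score, so replicate error and the depth behind a domain are unknown, and no test was made. Errors below are delete-one-chromosome jackknife standard errors (SE) of that 1 pooled map, which show how evenly a value holds along the genome and not how it would vary between litters.

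H3K9me2, dimethylation of lysine 9 of histone H3, is laid down mainly by the paired enzymes G9a (Ehmt2) and GLP (Ehmt1) and marks silent chromatin, much of it at the nuclear rim. Lamin B1 is a filament protein of the nuclear lamina, and LADs are gene-poor, late-replicating stretches that lie against it. In the developing forebrain, neuroepithelial progenitors line the ventricles and divide, and their daughters turn into glutamatergic neurons dorsally and GABAergic neurons ventrally. Many long neuronal genes lie in LADs in non-neuronal and progenitor cells, while genes of growth and division mostly lie in the nuclear interior.

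Promoter sequences show what kind of start site lies in these domains. Each line below gives the 120 bases before a transcription start, 5′ to 3′ on the strand of the gene, with CpG dinucleotides in capitals, from the RefSeq promoter table for GRCm38.p6, whose chromosomes are those of mm10. Sox2 (progenitor maintenance), Emx1 (dorsal forebrain) and Gsx1 (ventral forebrain) lay wholly in open domains, and Gria2 (a glutamate receptor subunit) and Syt1 (the calcium sensor of synaptic vesicles) wholly in LADs. Syt1 was added after the values were seen, as the first LAD gene of its list whose promoter was not rich in CpG.
Sox2, chr3:34649875-34649994, plus strand, open: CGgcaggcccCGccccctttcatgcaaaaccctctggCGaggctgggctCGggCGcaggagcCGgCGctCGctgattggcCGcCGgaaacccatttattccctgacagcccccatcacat
Emx1, chr6:85187811-85187930, plus strand, open: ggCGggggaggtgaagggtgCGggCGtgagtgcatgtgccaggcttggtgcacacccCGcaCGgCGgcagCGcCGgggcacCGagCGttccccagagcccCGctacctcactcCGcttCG
Gsx1, chr5:147188576-147188695, plus strand, open: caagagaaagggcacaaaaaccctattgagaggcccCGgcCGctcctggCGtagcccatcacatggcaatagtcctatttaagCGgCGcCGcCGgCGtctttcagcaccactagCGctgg
Gria2, chr3:80802836-80802955, minus strand, LAD: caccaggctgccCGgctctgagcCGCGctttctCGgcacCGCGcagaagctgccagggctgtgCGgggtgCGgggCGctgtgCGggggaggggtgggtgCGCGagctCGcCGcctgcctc
Syt1, chr10:109010976-109011095, minus strand, LAD: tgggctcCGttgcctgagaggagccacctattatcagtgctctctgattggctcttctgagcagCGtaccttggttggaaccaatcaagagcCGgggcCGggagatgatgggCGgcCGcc
The printed stretches hold 10 CpGs for Sox2, 13 for Emx1, 9 for Gsx1, 14 for Gria2 and 6 for Syt1. Over the full 300 bases of the table (250 before to 50 after the start), the ratio of observed to expected CpG was 0.82 for Sox2, 0.90 for Emx1, 0.79 for Gsx1, 0.80 for Gria2 and 0.33 for Syt1. A promoter rich in CpG was thus not limited to open domains, as Gria2 shows.

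The loci that encode the miRNA miR-9 lay in different listed states. Which of the loci make it in this tissue was not examined. The miRNA was chosen after the values were seen. Its mature sequence, from RefSeq, has the seed (bases 2 to 8) in capitals.
mmu-miR-9-5p: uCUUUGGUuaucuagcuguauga
This miRNA restrains progenitor factors in the forebrain. Mir9-2 lay in an open domain of 120 kb (chr13:83660001-83780000) and Mir9-3 in one of 310 kb (chr7:79220001-79530000), whereas Mir9-1 on chromosome 3 was in a KOD. Mir137 was open in a domain of 50 kb, and of the paired miR-128 loci Mir128-1 was open and Mir128-2 in a LAD.

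Open domains covered 745.9 Mb, or 31.1% ± 1.09 (SE over 19 chromosomes), of the 2400 Mb of the forebrain map, which spans each chromosome between its outermost listed bins. LADs covered 44.0% ± 2.25, KODs 17.2% ± 1.94, and 7.68% ± 0.355 was in none of the 3 lists. Most open domains were short, with a median of 110 kb, quartiles of 30 and 240 kb, and a mean of 200.0 kb (SD 286 over domains). The range ran from 10 kb, a single bin, to 3770 kb. KODs were somewhat shorter in the middle (median 70 kb) and LADs had a similar median (120 kb) with a much longer tail, reaching 12090 kb.

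Number and bases were carried by different domains. The 518 domains of a single bin made up 13.9% of all open domains and 0.694% of open bases. The 98 domains of 1000 kb or more were 2.63% of domains and held 18.4% of the bases, and the 294 of 500 to 990 kb held another 27.1%. Short and long domains also differed in content. The share with no protein-coding gene overlapping was 37.8% at 10 kb, 33.2% at 20 to 40 kb, 11.4% at 50 to 90 kb and 3.28% at 100 to 240 kb, and no domain of 500 kb or more lacked one. A longer stretch has more room for a gene, so this fall with length is partly built in. Gene midpoints per Mb, which take length into account, were lowest in the single bins (9.65) and highest at 50 to 90 kb (18.2).

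**Figure D1:**
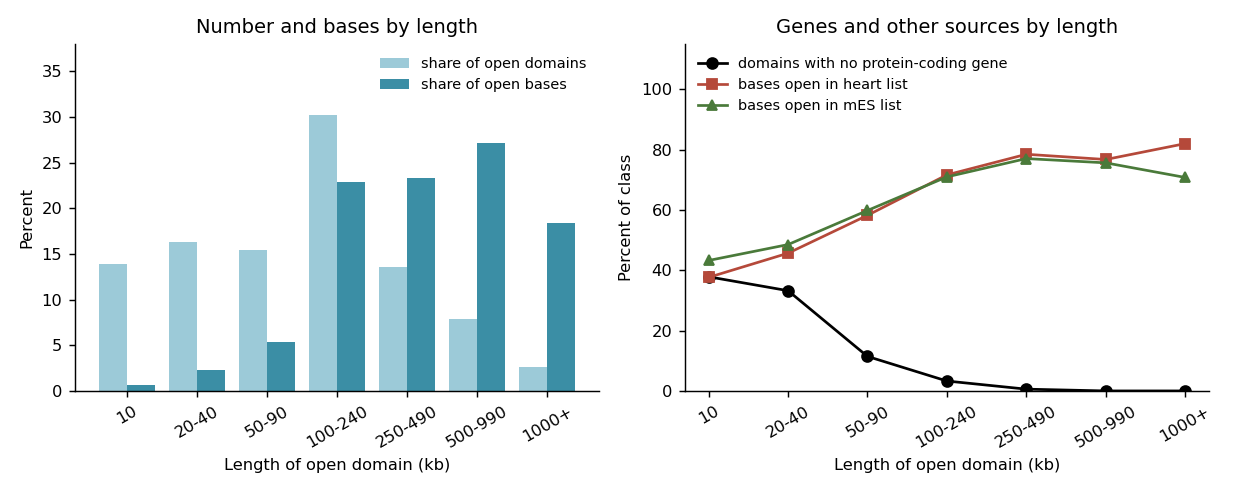
Open domains of the forebrain by length class (kb). Left, percent of the 3730 domains and percent of open bases in each class. Right, percent of domains with no protein-coding gene, and percent of the bases of each class that are open in the heart list or in the mES list. Single bins are 13.9% of domains and 0.694% of bases, while bases shared with heart climb from 37.6% to 81.98%.

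Some of the longest domains held few genes for their size and some held whole gene clusters. The longest, chr12:21500001-25270000 (3770 kb), lay between KODs and held 22 protein-coding genes, among them Mboat2, a lysophospholipid acyltransferase, and Kidins220, a scaffold of neurotrophin receptors. The next, chr7:17890001-21620000 (3730 kb), held 119, among them Nlrp9b of the oocyte NLRP family, the neuronal splicing factor Nova2 and the kinase gene Mark4. Chr12:16520001-20230000 (3710 kb) held 29, among them Greb1, Lpin1 and Hpcal1. These 3 domains of nearly equal length thus differed several-fold in gene number.

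Genes of several kinds lay in the rest of the 10 longest domains. Chr8:12710001-15280000 (2570 kb) held Dlgap2, a protein of the postsynaptic scaffold, whose 758 kb make it the longest gene wholly inside an open domain. Chr12:3080001-5420000 (2340 kb) held Klhl29 and Ncoa1. Chr1:118260001-120410000 (2150 kb) held Gli2, a transcription factor of the Hedgehog pathway, and Clasp1, a microtubule plus-end protein, and touched a LAD on 1 side. Chr7:65220001-67350000 (2130 kb) held Adamts17, Tjp1 and Pcsk6. The remaining 3 of the 10 longest were chr13:65190001-67110000 (1920 kb, with Zfp708 and Zfp369 of the zinc-finger family), chr16:10230001-12130000 (1900 kb, with Snx29 and Clec16a) and chr7:21670001-23530000 (1860 kb, 45 genes, with Nlrp4e and Nlrp5). By gene number, the domain on chromosome 7 with 119 was followed by chr8:69650001-70960000 with 66 (Gatad2a, Crtc1), chr10:79500001-80470000 with 59 (Sbno2, Arid3a, Palm), chr10:77210001-78620000 with 50 (Adarb1, an RNA editing enzyme) and chr6:124350001-125720000 with 48 (Vwf, Chd4).

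The 3711 gaps between neighbouring open domains had a median of 110 kb and quartiles of 30 and 335 kb, and 798 of them were 20 kb or less. The median depended on the short domains: it was 180 kb without open domains under 50 kb and 230 kb without those under 100 kb. A few very long gaps took up most of the distance: the 409 gaps of 1000 kb or more (11.02%) held 66.0% of all bases between open domains. What filled a gap went with its length, which is partly built in, since a gap holding several states needs more bins. In 1929 gaps (52.0%) there was only KOD, with a median of 80 kb. In 641 (17.3%) there were only bins in no list, with a median of 20 kb. LAD together with bins in no list filled 775 gaps (20.9%) with a median of 560 kb and 987 Mb in all, against 349.8 Mb in the gaps of KOD only. The 15 gaps of LAD only were short, with a median of 50 kb.

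The longest stretches with no open bin were mostly LAD. The longest, chr15:12940001-25310000 (12370 kb, 98.1% LAD), held 7 protein-coding genes, the 4 longest of which were the cadherins Cdh12, Cdh18, Cdh10 and Cdh6. The next 4 were chr1:93880001-105630000 (11750 kb, with Cntnap5b and Cdh20), chr10:96660001-108210000 (11550 kb, 46 genes, with Mgat4c and Ppfia2), chr1:106790001-118260000 (11470 kb, with Cntnap5a, Cdh7 and Cdh19) and chr14:105900001-116930000 (11030 kb, with Gpc5, Slitrk5 and Slitrk6). Cadherins are calcium-dependent cell adhesion proteins and Slitrk proteins shape synapses. Of 23 cadherin genes in all, 7 were open, 3 KOD, 10 LAD and 3 in no list.

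Open domains met KODs far more often than LADs. Of their 7460 ends, 4094 (54.9% ± 2.92) touched a KOD, 269 (3.61% ± 0.291) touched a LAD, 3082 (41.3% ± 2.70) touched a bin in no list, and 15 were at the end of the map. KOD ends outnumbered LAD ends on 19 of 19 chromosomes, with the KOD share between 32.0% on chromosome 3 and 83.9% on chromosome 11. The pattern was not the same seen from the other states. Of the 5240 KOD ends 78.1% touched an open domain and 8.80% a LAD, whereas of the 4170 LAD ends 82.1% touched a bin in no list, 11.1% a KOD and 6.45% an open domain.

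**Figure D2:**
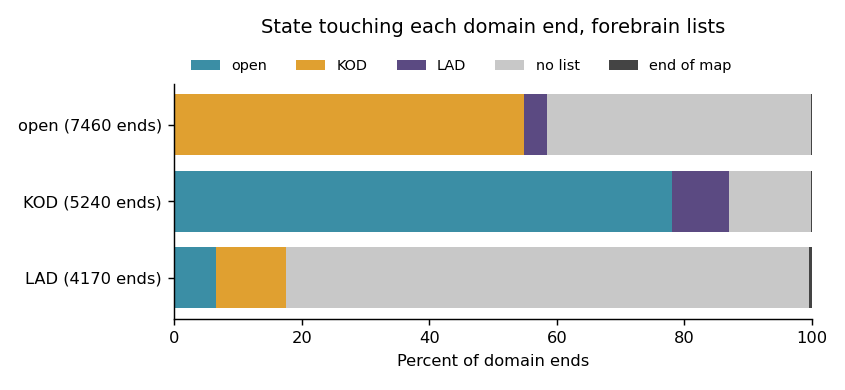
State of the 10 kb bin touching each domain end in the forebrain lists, as percent of the ends of open domains, KODs and LADs. Open ends met KOD in 54.9% and LAD in 3.61% of cases, and 82.1% of LAD ends met bins in no list.

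Where a LAD was the next listed state beyond an open end, a thin strip of bins in no list mostly lay between them. With those bins passed over, the next listed state was KOD for 4355 ends, of which 94.0% touched it, LAD for 1808 ends, of which 14.9% touched it, and another open domain for 1282. The strip between an open end and the LAD beyond it had a median of 30 kb and reached 640 kb over 1539 ends. How the strips arise was not tested.

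Flanks went with gene content. The 1819 domains with a KOD on both sides (48.8%) had a median of 100 kb and 19.1 gene midpoints per Mb, against 12.2 per Mb in the 1230 domains (33.0%) between bins in no list, which were of like length (90 kb). The order held on 17 of 19 chromosomes. Domains with KOD on 1 side were longer where the other side was not KOD, with a median of 330 kb for no list (418 domains) and 420 kb for LAD (34 domains). Only 20 domains touched a LAD on both sides. The longest of these, chr9:114330001-115380000 (1050 kb), held 15 genes, among them Osbpl10, Glb1 (lysosomal beta-galactosidase) and Stt3b, and was 93.3% open in the heart list and 97.1% in the mES list. The other 4 of the 5 longest held Ankrd17 and Cox18 (250 kb, chromosome 5), Sema6a, an axon guidance protein (220 kb, chromosome 18), part of Khdrbs3 (200 kb, chromosome 15) and Phip with Irak1bp1 (200 kb, chromosome 9). Zic1 and Nr2f1, transcription factors of forebrain patterning, also lay in domains with LAD on both sides (140 and 130 kb). Between KODs, the longest after that on chromosome 12 were chr10:40770001-42430000 (1660 kb, with Ccdc162, Ak9 and Fig4), chr8:47340001-48860000 (1520 kb, with Wwc2), chr15:72550001-73990000 (1440 kb, with Trappc9, Ptk2 and Ago2) and chr12:104380001-105730000 (1350 kb, with Clmn and Syne3).

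Because open domains and KODs touched so often, they alternated in long chains. Joined wherever they touched, open domains and KODs made 346 chains with at least 1 of each, and these held 2275 of the 3730 open domains. The 143 chains of 5 or more open domains held 1895 (50.8%). The one with the most open domains, chr8:114370001-127590000, ran for 13220 kb through 49 open domains and 48 KODs and was 52.4% open. It was followed by chr15:75220001-89620000 (45 and 45), chr5:109950001-124640000 (44 and 43) and chr11:93800001-108510000 (43 and 42, only 27.3% open). The other 1455 open domains touched neither KOD nor another open domain.

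Chromosomes differed less in open share than in KOD or LAD share. The open share ran from 26.2% on chromosome 3 over a median of 29.6% to 44.9% on chromosome 7, the KOD share from 3.86% (chromosome 3) to 39.0% (chromosome 11) and the LAD share from 24.5% (chromosome 19) to 60.1% (chromosome 3). The number of open domains ranged from 119 on chromosome 19 to 295 on chromosome 7, or 1.12 to 2.07 per Mb, and their median length from 80 to 130 kb. Chromosome 11, the second most gene-dense at 13.6 genes per Mb, had 41.0% of its genes open and 50.8% in KODs. Across the 19 chromosomes, gene density had a Pearson's r of 0.58 and a Spearman's rho of 0.36 with the open share, 0.66 and 0.50 with the KOD share, and -0.78 and -0.60 with the LAD share. These describe 19 pieces of 1 map, and the shares of a chromosome sum to the whole, so they are not separate findings.

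**Figure D3:**
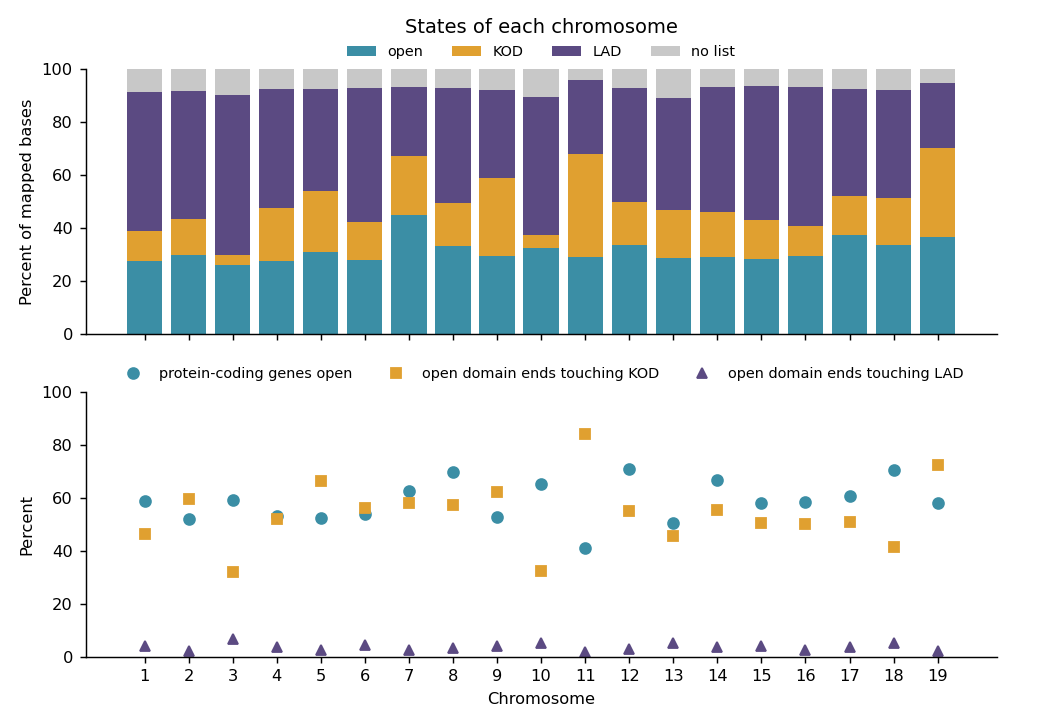
Upper panel, percent of mapped bases of each chromosome in open domains, KODs, LADs and no list. Lower panel, percent of protein-coding genes that are open, and percent of open domain ends touching KOD or LAD. Open share peaks at 44.9% on chromosome 7, and chromosome 11 combines 83.9% of ends at KOD with 41.0% of genes open.

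Along a chromosome, the open share had no steady trend, while the KOD share rose toward the last parts, though not at every step. With each chromosome cut into 10 equal parts from its first listed bin, the open share lay between 24.8% (the eighth part) and 36.7% (the second). The KOD share was lowest in the first part (4.91%), lay between 10.3% and 20.0% from the second to the eighth, and was 30.5% in the ninth and 25.9% in the last. In windows of 5 Mb, 19 of 471 had no open bin, 65 were under 5% open and 54 were 60% open or more. The windows under 5% held a median of 10 protein-coding genes and those of 60% or more held 59.5. The most open window, chr7:18050001-23050000, was 99% open with 153 genes, followed by chr12:18050001-23050000 (97.4%, 33 genes) and chr14:3050001-8050000 (93.8%, 80 genes). These windows, nearly full of bins listed as open, thus differed several-fold in gene number.

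Most genes lay in open domains. By the state over the largest part of the gene body, 11859 of 20665 RefSeq protein-coding genes were open, or 57.4% ± 1.94, in 31.1% of the map, 18.9% ± 3.18 were in KODs, 16.5% ± 1.74 in LADs and 7.21% ± 0.747 in no list. Gene midpoints came to 15.8 ± 0.614 per Mb in open domains (11.7 on chromosome 18 to 19.9 on chromosome 7), 9.51 ± 1.22 in KODs and 3.22 ± 0.402 in LADs, in that order on 19 of 19 chromosomes. Open genes had a median length of 19.6 kb, between 8.36 kb in LADs and 23.5 kb for genes in no list. The open share of other kinds of gene, not tested against that of coding genes, was 43.6% of 12408 lncRNAs, 32.8% of 8884 pseudogenes, 54.7% of 1136 miRNAs, 48.7% of 1286 snoRNAs and 43.0% of 391 tRNAs, the last with 46.0% in KODs.

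Very long genes were mostly outside. Of 2313 genes of 100 kb or more 47.6% were open, and of 216 genes of 500 kb or more 18.98% were open and 58.8% were in LADs. After Dlgap2, the longest genes wholly inside an open domain were Nav2 (651 kb), which acts in neurite growth, Foxp1 (597 kb), a transcription factor with roles in neurons, Slit3 (587 kb), a guidance ligand of Robo receptors, and Nbea (559 kb), which acts in membrane traffic at synapses. The domain of Foxp1, chr6:98910001-99570000, ran close to the gene at chr6:98925342-99522746. In all, 69 domains matched a gene of 100 kb or more over at least 80% of both, and beside Foxp1 the longest were those of the catenin Ctnnd2 (857 kb), the teneurin Tenm4 (740 kb) and the synaptic scaffold Grip1 (634 kb).

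Other open domains were islands within a gene. Wholly inside 1 protein-coding gene lay 643 domains (17.2%, median 20 kb), spread over 461 genes. The longest 5 were in Ctnnd2 (820 kb), Nckap5 (560 kb), Wwox (350 kb), Fat3 (340 kb) and the protocadherin beta cluster (270 kb), where long cluster-spanning gene models overlap the single genes. Prkg1, a kinase of cyclic GMP signalling, and Rbms3, an RNA-binding protein, each held 7 islands. The body of Prkg1 was 20.0% open, 22.5% KOD, 19.2% LAD and 38.4% in no list, so all states met in 1 gene.

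No protein-coding gene overlapped 504 domains (13.5%, 17.6 Mb, median 20 kb), of which 244 overlapped another annotated gene and 260 none. The longest, chr7:59330001-59800000 (470 kb), held 182 snoRNAs with the host transcript Snhg14 and the lncRNA Ipw, an imprinted cluster known from the Prader-Willi region. The other 4 of the 5 longest, at chr2:178500001-178860000, chr8:35020001-35270000, chr11:113000001-113230000 and chr12:12600001-12810000 (360, 250, 230 and 210 kb), held 4 or 5 lncRNAs each. At the other extreme, 343 domains with 10 or more genes held 34.8% of open bases.

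The gene lists are set beside the share over all coding genes, 57.4% open, and a list near that share says nothing about its genes. Of the progenitor genes 18 of 28 were open, 7 were in KODs, 0 in LADs and 3 in no list. Sox2 was the only protein-coding gene wholly inside a 170 kb domain between KODs. Pax6, which patterns the dorsal forebrain, was the only one wholly inside a domain of 230 kb. Genes that partly overlap these domains and non-coding genes were not counted here. Nes, the intermediate filament of progenitors, lay with 12 other genes in a domain of 350 kb, and the Notch effector Hes1 in one of 450 kb. Sox1, a relative of Sox2, was 100% KOD, and Vim and Fabp7, markers of radial glia, were in no list. At 64.3% open the list was near the share of all coding genes.

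Transcription factors of the cortex and dorsal forebrain were open in 26 of 37 cases, KOD in 6 and LAD in 2. Emx1 and Otx1 were wholly open (domains of 380 and 210 kb), as was Six3 (110 kb), while Emx2 and Lhx2 were 100% KOD and Lhx9 was in no list. Paralogs with related roles thus lay in different states. The ventral and GABAergic list had 17 of 28 open, 9 in KODs and 2 in LADs. Dlx5 and Dlx6 shared a 120 kb domain, and Gsx1 lay in one of 710 kb. Their relatives Dlx1, Dlx2 and Gsx2 were each 100% KOD, and the 2 in LADs were Isl1, a factor of striatal neurons, and Gad2, which makes GABA.

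Patterning signals and their receptors were open in 29 of 42 cases, KOD in 7 and LAD in 4. The Hedgehog genes named here, some of them after their values were seen, were the ligand Shh (domain of 530 kb), its receptor Ptch1 (130 kb), the transducer Smo (140 kb) and the transcription factors Gli1 (960 kb), Gli2 (2150 kb) and Gli3 (340 kb), each 100% open. Hhip, a decoy receptor of the pathway, was mostly in no list (15.3% LAD). Among Wnt ligands Wnt1 and Wnt7a were 100% open and Wnt3a and Wnt8b 100% KOD. The 4 in LADs were the Wnt receptor Fzd8, the Wnt agonist Rspo3, the ligand Bmp2 and, with 77.1% of its body, the retinoic acid receptor Rarb. By family, 9 of 19 Wnt genes, 10 of 20 Fgf genes, 31 of 41 Fox genes, 8 of 18 Sox genes and 23 of 39 Hox genes were open. Hox genes, which set identity behind the forebrain, had their other 16 members in KODs and the 23 in only 3 domains.

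Genes of neuronal differentiation were followed in a pair of lists. Of 24 early cytoskeletal and RNA-binding genes, 15 were open, 6 KOD and 1 LAD. Tubb2b and the microtubule protein Map2 were wholly open (550 and 310 kb), Map1b was open over 51.0% of its body, and Stmn3 was wholly open. The tubulin gene Tubb3, Mapt and Stmn1 were 100% KOD. Of 55 synaptic, channel and axon guidance genes, 10 were open, 15 KOD, 27 LAD and 3 in no list, which at 18.2% open was the lowest of the symbol lists. Members of this list were long, with a median of 321 kb and 44 of 55 at 100 kb or more, against a median of 72.1 kb in the early list, and of all coding genes of 500 kb or more 18.98% were open and 58.8% in LADs. The difference between the lists, and the part of gene length in it, was not tested. The first 4 open ones in list order were the glutamate receptor subunit Grin1 (480 kb, with 39 other genes), the sodium channel Scn8a (82.9% of the body), the calcium channel Cacna1a (76.3%) and the kinase Camk2a (1590 kb). Grin2a was 61.2% KOD, Grin2b 63.8% LAD and Gria1 71.8% KOD. Of 91 Kcn potassium channel genes 46 were open and 20 LAD.

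**Figure D4:**
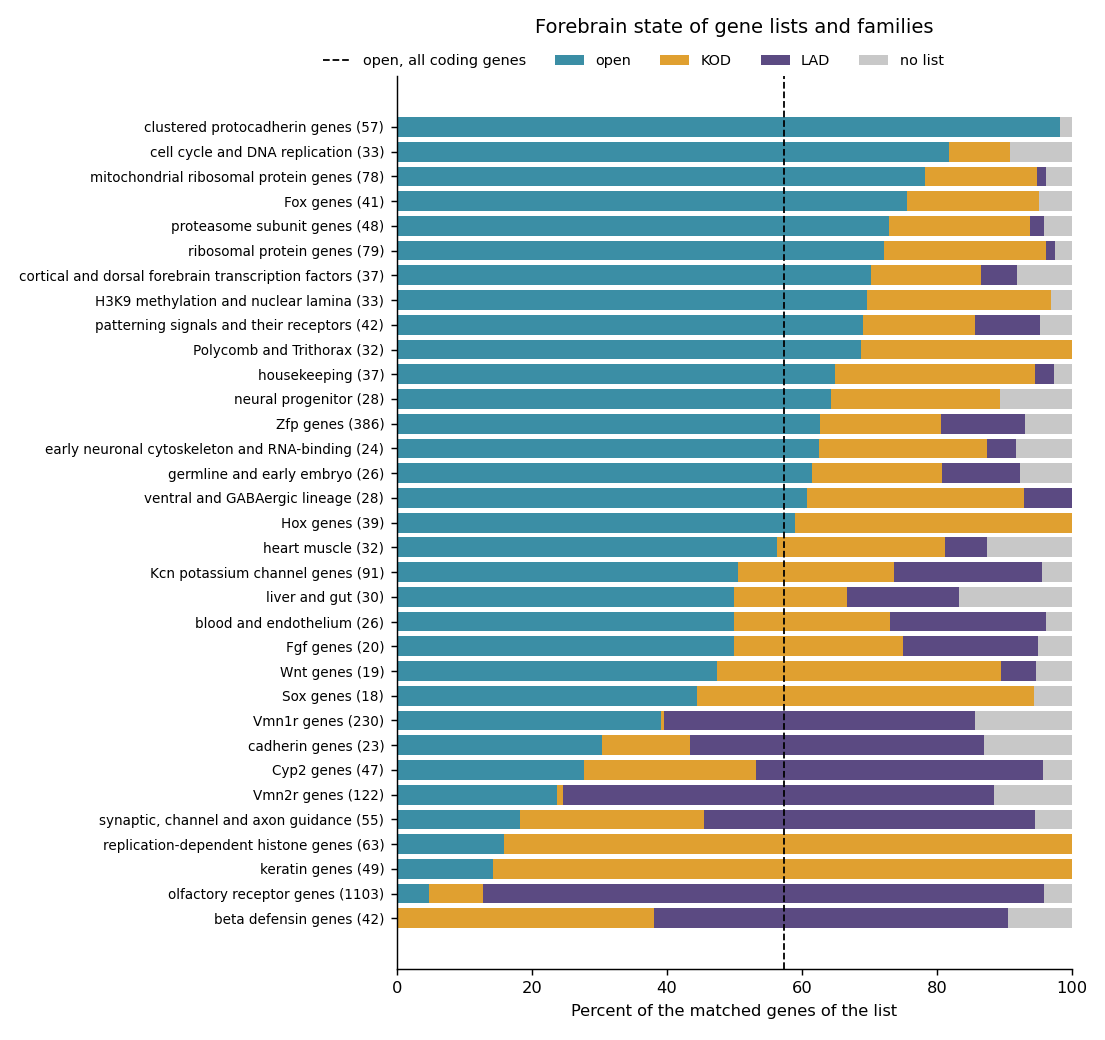
Percent of the matched genes of each list or family (number in brackets) that are open, KOD, LAD or in no list in forebrain. The dashed line marks the 57.4% of all protein-coding genes that are open. Cell cycle genes lie above it at 81.8% and synaptic, channel and guidance genes below it at 18.2%.

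Cell division genes were the most often open of the symbol lists, with 27 of 33 (81.8%) open, 3 KOD and 0 LAD. Mki67, Pcna, the replicative helicase subunits Mcm2 and Mcm4 and the kinases Cdk1, Cdk2, Cdk4 and Cdk6 were each 100% open, with Mcm3 in no list and Aurkb and Cdt1 in KODs. Housekeeping genes were open in 24 of 37 cases, with Gapdh, Tbp, Eef1a1 and Eef2 wholly open, Actb and Polr2a 100% KOD, and the testis gene Pgk2 the single LAD member. Among large families, 57 of 79 ribosomal protein genes in 57 different domains, 61 of 78 mitochondrial ribosomal protein genes and 35 of 48 proteasome genes were open. These genes were spread over many domains, unlike the tandem families described below.

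Chromatin regulators were open in 22 of 32 Polycomb and Trithorax genes and 23 of 33 genes of H3K9 methylation and the lamina, with the rest nearly all KOD (10 and 9) and 0 in LADs. Over all coding genes 57.4% were open, 18.9% KOD and 16.5% LAD. The open shares of these short lists, 68.75% and 69.7%, were not tested against that. Ehmt1 and Ehmt2, the enzymes that write H3K9me2, were wholly open (domains of 730 and 240 kb), as were their partner Wiz and the methyltransferase Suv39h2, while Zfp644 and Setdb1 were mostly KOD (87.5% and 80.8%). The lamina genes Lmnb1, which encodes Lamin B1, Lmna and Lmnb2 were also 100% open. Of the Polycomb genes Ezh2, Eed, Mtf2 and Phf1 were wholly open and Ezh1 and Suz12 100% KOD, with Jarid2 93.9% KOD.

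Lists of genes of other tissues came near the share over all coding genes, so their counts say nothing about these genes. Heart muscle genes were open in 18 of 32 cases (Myh7 over 80.7% of its body, Tnni1 over 64.2%, Tnni3 and Tnnc1 wholly), KOD in 8 and LAD in 2, with Myh6 and Tnnt2 in KODs and Actc1 in a LAD. Liver and gut genes were open in 15 of 30 (Apoa1 and Apoa2 wholly) and LAD in 5 (among them Alb, Afp and Apob). Blood and endothelial genes were open in 13 of 26, among them Tal1, Lmo2 and both listed genes of the alpha globin cluster, Hba-a1 and Hba-x. LAD held 6 of the blood list, among them both beta globins listed, Hbb-bs and Hbb-y. Germline and early embryo genes were open in 16 of 26 (Dazl, Sycp3, Stra8, Piwil1) and LAD in 3. All 4 shares, from 50.0% to 61.5%, were near the 57.4% of all coding genes.

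Tandem families fell as blocks, so their members are not independent. The clustered protocadherins, cell surface codes of neurons, were open in 56 of 57 cases, all in 4 domains of 1 chromosome. Of 63 replication-dependent histone genes 53 were KOD and 10, in 1 domain, were open, and of 49 keratin genes 42 were KOD and 7 open. Olfactory receptors were LAD in 917 of 1103 cases and open in 53. The vomeronasal receptors were divided: 90 of 230 Vmn1r genes, in 13 domains, and 29 of 122 Vmn2r genes were open, and 106 and 78 were LAD. Zfp genes were open in 242 of 386 cases over 149 domains, Cyp2 genes in 13 of 47 and beta defensins in 0 of 42.

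Promoters of open genes were more often rich in CpG than those of genes in KODs or LADs. The printed examples of Sox2, Emx1 and Gsx1 were rich by the limits below, and so was that of Gria2 in a LAD. Promoter sequence was matched for 16457 coding genes, none of them on chromosome 18, which are 81.7% of the coding genes of the other 18 chromosomes (82.5% of open, 80.5% of KOD and 82.98% of LAD genes), so what follows holds for those. A promoter was counted as rich in CpG with a ratio of observed to expected CpG of at least 0.6 and GC of at least 50%. This held for 59.3% ± 2.43 of 9482 promoters of open genes, 45.6% ± 1.47 of 3100 in KODs and 11.1% ± 1.16 of 2784 in LADs, against 47.3% of all matched. Open was above LAD on 18 of 18 chromosomes and KOD above open on 0. Read the other way, 72.3% of the 7777 CpG-rich promoters were open against 44.5% of the 8680 others, and 3.96% against 28.5% were LAD.

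Motifs that hold a CpG were more frequent in open than in LAD promoters. On either strand of the 300 bases, the GC box GGGCGG stood in 57.2% ± 1.83 of open, 47.1% of KOD and 15.7% of LAD promoters (47.3% of all), and the TATA box TATAAA in 8.66% ± 0.702, 12.8% and 29.7% (13.5% of all). The CCAAT box differed little, at 38.2% ± 0.858, 40.2% and 39.7% (39.1% of all). The E-box CACGTG stood in 9.33%, 8.42% and 3.48% (7.97% of all), the cyclic AMP element TGACGTCA in 2.83%, 2.52% and 0.862% (2.40% of all) and the core of the NRF1 motif GCGCATGC in 4.50%, 3.68% and 0.862% (3.66% of all). The GC box, the E-box, the cyclic AMP element and the NRF1 core each hold a CpG and the other motifs none. A match is a run of letters and not a bound site.

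Gene starts changed around the ends of open domains, and to different degrees for the 2 neighbours. At ends touching a KOD, coding gene starts inside the open domain came to 14.3 per Mb in the tenth bin from the end. They reached 17.8 in the fifth bin and 14.4 in the last open bin. Beyond the end they came to 13.4 in the first bin, 9.85 in the fifth and 10.6 in the tenth, at 100 kb. At ends with a LAD within 50 kb, starts came to 10.7 per Mb in the tenth open bin from the end. They fell from 13.6 per Mb in the fourth bin to 7.46 in the last open bin, and to 4.31 in the fifth bin beyond. Fewer bins were counted at the tenth place than at the last (2181 against 3985 at KOD ends, 825 against 1341 at LAD ends). The bins of a profile thus do not all come from the same domains. The first bins beyond include the strip in no list. These values cover the 18 chromosomes with matched starts.

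**Figure D5:**
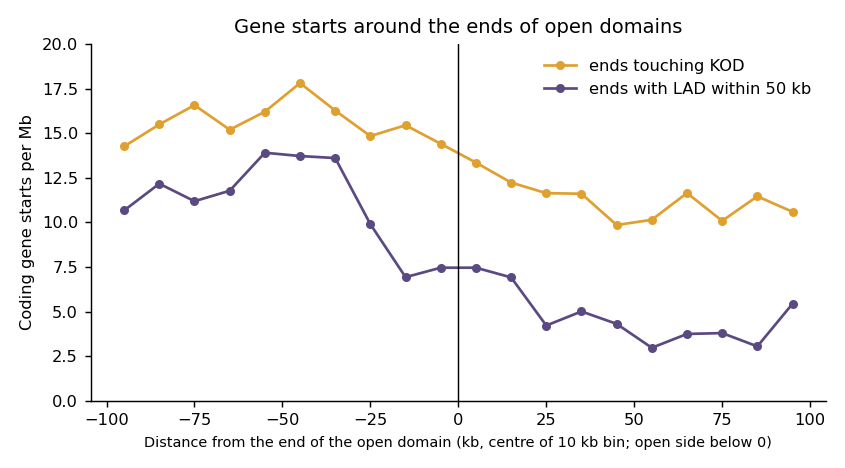
Starts of protein-coding genes per Mb in 10 kb bins inside (below 0) and outside (above 0) the ends of open domains, at the distance of the bin centre in kb, for ends touching KOD and ends with LAD within 50 kb. The step at KOD ends is small (14.4 to 13.4 per Mb). Within the open domain at KOD ends, starts come to 14.3 per Mb in the tenth bin from the end, 17.8 in the fifth and 14.4 in the last. At LAD ends they come to 10.7 in the tenth bin, 13.6 in the fourth and 7.46 in the last.

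Genes that crossed from an open domain into a KOD, with the start in either and no LAD, numbered 1293 with a known start. The start was on the open side in 549 (42.5% ± 1.62), although on average 52.5% of the body was open, and the open side held over 50% of the starts on only 2 of 18 chromosomes. For the 176 genes crossing between open and LAD, the start was open in 84 (47.7% ± 3.74) with 32.4% of the body open. Here the open side held over 50% of the starts on 4 of 18 chromosomes, and the rest of the body includes bins in no list, so the 2 shares are not on the same base. No difference between start and body was tested.

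Set beside the other sources, most forebrain open bases were also open in heart (74.9% ± 1.06) and in mES cells (72.3% ± 1.51), 61.4% ± 1.53 in both and 14.2% ± 0.847 in neither. The rest was mainly KOD there, 14.1% in heart and 18.8% in mES cells, while 3.12% was LAD in heart and 3.81% in mES cells. Sharing went with length, from 37.6% of bases open in heart for single bins to 81.98% for domains of 1000 kb or more, and from 43.2% to 77.0% in mES cells at 250 to 490 kb, with 70.8% in the longest class. Several of the longest domains were less shared with mES cells: the bins of chr12:21500001-25270000 were 33.2% open and 66.8% KOD there, and those of chr7:21670001-23530000 were 94.1% LAD there and 88.7% open in heart.

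No bin of 615 domains (16.5%, 26.1 Mb, median 20 kb) was open in either other list, and 87 protein-coding genes lay wholly inside them. The 4 longest were chr7:47300001-47670000 (370 kb, with the sensory receptor genes Mrgpra1 and Mrgpra3), chr9:16160001-16500000 (340 kb, inside the atypical cadherin Fat3), chr1:66160001-66470000 (310 kb, with Map2 and part of the channel subunit gene Unc80) and chr4:144200001-144460000 (260 kb, with Pramel13 and Pramel5). The first 3 were 100% LAD in mES cells, and in heart they were LAD over 21.6%, 20.6% and 61.3% and otherwise in no list. The 820 kb domain in Ctnnd2 had bins open in both other lists and is not one of the 615: it was 93.9% LAD and 1.22% open in heart, and 62.2% KOD and 30.5% open in mES cells. That in Nckap5 was 67.9% LAD in mES cells.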

How the data were processed

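The domain lists deposited by the authors (LAD, KOD and open for each source, in mm10) were read as bins of 10 kb, and starts were turned to 1-based coordinates. The tools named, without their roles, in the submitters' processing notes are Bowtie2 2.5.0, cutadapt 4.2, Trim Galore, deepTools and Picard. The caller of the domains, its thresholds and its use of IgG are not given in the sources used here. A longer domain can reflect a looser threshold, and poorly mappable bins can fall in no list. The mappability of bins listed as open was not examined. Signal tracks were not analysed here.

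Maps were built with Python 3.11.15, numpy 2.4.6 and pandas 2.3.3, the code was checked on a made-up map, and figures were drawn with matplotlib 3.10.9. Genes and promoters came from RefSeq tables of GRCm38.p6, with 20665 protein-coding genes on chromosomes 1 to 19. The state of a gene was the one over the largest part of its body (the midpoint gave the same state for 98.7%). Symbols of 14 lists and name patterns of 19 families were matched directly or by synonym, all but L1cam, Nono and Alas2. The histone pattern was narrowed after values were seen, to drop H13, which is no histone, and histone variants.

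Named genes follow a rule: the longest, most gene-rich and gene-free domains with up to 4 genes in order of length, and up to 4 open and 3 other members of each list in list order. Genes named beyond it (the remaining Hedgehog, Cdk and lamina genes, Zic1, Nr2f1, Wnt ligands beyond the first, Fzd8, Rspo3, Bmp2, Rarb, Pgk2 and those of gaps, chains and single-gene domains) were chosen after their values were seen. The members and lists were chosen with earlier results of these data known. All values are descriptions of 1 pooled map, with no test.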

Additional observations from a re-analysis of the deposited data

How the results depend on the processing

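Over 14 results, 60 alternatives were run, and 30 stayed within 1 jackknife SE (shares and densities) or 1.5 times (counts and medians). The other 30 follow.

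Leaving out open domains under 50 kb gave a median spacing of 180 kb, 3.94% of ends touching LAD and 4.07% of domains with no coding gene. Leaving out those under 100 kb gave 2027 domains, a median length of 220 kb and spacing of 230 kb, 28.5% of the map open, 4.05% of ends touching LAD, 52.7% of genes open, 1.97% of domains with no coding gene, and 76.9% and 73.8% of open bases also open in heart and mES cells. These moves follow from the shorter list. Joining open domains over gaps in no list of 20 kb or less gave 60.3% of ends touching KOD and 3.96% touching LAD, since the joined ends drop out. With the nearest listed state within 50 kb in place of the touching bin, LAD flanked 18.8% of ends, because strips in no list were passed over.

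Trimming 20 kb from every domain end gave 25.8% of the map and 49.5% of genes open, 16.5 gene midpoints per Mb, and 70.3% and 67.9% of bases shared with heart and mES cells. Counting only listed bins gave 33.7% of the map open, and 81.4% and 76.1% shared. Only 51.1% of genes lay wholly inside 1 open domain. Starts came to 13.01 per Mb, since 81.7% of genes off chromosome 18 had one. With midpoints only, 33.3% of open domains had no coding gene, and with all annotated genes 6.97% had none. With a CpG ratio of at least 0.75 and GC of at least 55%, rich promoters were 39.9% in open domains, 29.7% in KODs and 5.89% in LADs, in the same order. Leaving out each chromosome in turn moved none of the open share, KOD and LAD contacts, genes open and gene density by over 1 SE.

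No paired analysis was possible because each list pools the replicates, and for the same reason leaving out single replicates was not run. The lists carry no depth.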
